A study of Capra hircus with 2 samples.

Results

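Loricrin-high cells of cashmere goat skin were selected by their own transcript counts, and 149 of the 13051 cells kept by the authors met the limits. A member had at least 3000 unique molecular identifiers (UMIs, the counted transcript molecules), at least 5 loricrin (LOR) UMIs per 10000 of its UMIs with no fewer than 3 LOR UMIs, and fewer than 20 UMIs per 10000 of the hair shaft keratin gene KRT35. CT-LCG held 16 members of 3443 kept cells (0.465%, 95% exact Clopper-Pearson interval 0.266 to 0.754) and FT-LCG held 133 of 9608 (1.38%, interval 1.16 to 1.64). Among cells with at least 3000 UMIs, they made up 1.02% of 1561 cells in CT-LCG and 2.20% of 6033 in FT-LCG. LOR, KRT35 and the UMI total chose the members, so their values are given as a description only.

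Skin from over the shoulder blade of healthy Liaoning cashmere goats (Capra hircus), in the growing phase of the hair cycle, was dissociated into single cells and counted with a droplet-based kit that reads the 3′ end of transcripts. Library CT-LCG came from 1 goat with coarse fibre and library FT-LCG from 1 goat with fine fibre, and no treatment was applied. The library of each cell was taken from the deposited cell table, because the sample labels do not give the fibre type. With 1 animal per library there was no replicate, so intervals cover counting error only, no test was made, and fibre type, goat and preparation cannot be told apart.

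The granular layer is the last living layer of the epidermis. Its keratinocytes, which no longer divide, fill with granules of cornified envelope proteins such as loricrin and secrete lipids, proteases and protease inhibitors. They then lose their nucleus and organelles to become the dead horny layer. Beneath the granular layer lie the spinous layer, which makes the keratins KRT10 and KRT1, and the dividing basal layer, which makes KRT14 and KRT5.

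Members were set against 4 classes from the same library. Spinous cells had at least 3000 UMIs, KRT10 of at least 100, KRT14 below 50 and KRT35 below 20 UMIs per 10000, and were not members (739 in CT-LCG and 1532 in FT-LCG). Basal cells had KRT14 of at least 100 and KRT10 below 50 (190 and 2378). Cells with at least 3 UMIs over the endothelial markers, from at least 2 of these genes, and with KRT14 below 50 served to read the background of free RNA (20 and 72, without members). In FT-LCG they also held genes of the inner root sheath, at a summed level of 191, so they were not endothelial cells alone. The fourth class was made of all remaining cells with at least 3000 UMIs (1545 and 5900), which include the classes above. These classes are ranges of marker levels and not cell types established by other means.

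The depth of the members was close to that of the spinous cells. The median depth was 16328 UMIs for CT-LCG members and 16190 for FT-LCG members, and 20110 and 13037 for spinous cells. Summed over members, CT-LCG gave 481976 UMIs and FT-LCG gave 2541686. At 3000 randomly drawn UMIs per cell, the median number of detected genes was 1118.5 in members and 1198 in spinous cells of CT-LCG, and 1003 and 1116 in FT-LCG. Members thus showed fewer genes at equal depth than spinous cells in both libraries.

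LOR was spread over more than 2 orders of magnitude among the members. In CT-LCG it was lowest at 5.16 UMIs per 10000, had a median of 12.7 and reached 2016. In FT-LCG the lowest value was 5.11, the median 22.9 and the highest 2158. A single CT-LCG cell of 121348 UMIs, with LOR at 984, held 85.3% of all LOR UMIs of the CT-LCG members, whereas the leading FT-LCG cell held 19.2% of those of FT-LCG. Sums over CT-LCG members can lean on that cell, and values without the cell with the most LOR UMIs are given beside many of the results.

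Many members lay close to the limit. The members just inside it had LOR at 5.16, 5.17 and 5.33 in CT-LCG and at 5.11, 5.16 and 5.23 in FT-LCG, and the nearest cells below it had 4.56 and 4.95. LOR was below 10 in 7 CT-LCG and 39 FT-LCG members, while 2 and 34 members had 100 or more. Exactly 3 LOR UMIs were found in 1 CT-LCG and 14 FT-LCG members. A further 1 CT-LCG and 14 FT-LCG cells reached the level but had too few LOR UMIs, and 0 and 2 were left out by KRT35, which reached 5.94 at most among FT-LCG members and was 0 in every CT-LCG member.

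Free RNA in the droplets can bring LOR UMIs into cells that do not make them. Of the cells with endothelial markers, 0 of 20 met the LOR limits in CT-LCG, which allows a share of up to 15% (3 counts of the total), and 3 of 74 did so in FT-LCG (4.05%, interval 0.844 to 11.4), counted with 2 that are members. Of cells with KRT10 of at least 100 and KRT14 below 50, 13 of 752 met them in CT-LCG (1.73%) and 70 of 1602 in FT-LCG (4.37%, interval 3.42 to 5.49). Of cells with KRT14 of at least 100 and KRT10 below 50, 0 of 190 and 9 of 2387 (0.377%, interval 0.173 to 0.715) met them. In FT-LCG the endothelial and KRT10 intervals overlapped, while the KRT14 share lay below the KRT10 share. Whether members near the limit carried LOR of other cells was not tested. At 3000 UMIs, LOR was detected in 12.8% of FT-LCG spinous cells and 15.3% of FT-LCG endothelial cells (41.7% at full depth), whose median depths were 13037 and 6897.5 UMIs. The spinous class holds no member, so its LOR was limited by the rule.

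The name granular keratinocyte was then checked against CST6, KLK7 and KRTDAP. A level is the UMI count of a gene in a class of 1 library, divided by all UMIs of that class and multiplied by 10000, with an exact Poisson 95% interval; it is not adjusted for length, so levels of different genes are not compared. A gene was called higher or lower when its level, plus 0.1, differed at least 2-fold from that of the comparison class in the same direction in both libraries.

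CST6, which encodes cystatin M/E, an inhibitor of the proteases that act in cornification, was at 344 (338 to 349) in CT-LCG members and 16.1 in CT-LCG spinous cells. In FT-LCG it was at 1254 in members and 92.4 in spinous cells. The log2 ratio of members over spinous cells was 4.41 and 3.76 for the respective libraries, the largest among the 3 markers in both libraries. With a LOR limit of 20, which left 5 CT-LCG members, its CT-LCG level was 41.0. A pair of CT-LCG cells, with CST6 at 2443 and 1330, stood above the rest, and the median over the 16 members was 64.4, against 247 in FT-LCG.

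KLK7, a serine protease that cuts the junctions between horny cells, was at 12.5 (11.5 to 13.5) in CT-LCG members against 3.18 in spinous cells. In FT-LCG it was at 27.4 (26.7 to 28) against 5.44. At 3000 UMIs per cell it was detected in 68.8% of members, 22.1% of spinous cells and 15% of endothelial cells in CT-LCG, and in 74.4%, 24.0% and 9.72% in FT-LCG, so members carried it more often than either class.

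KRTDAP, a secreted peptide of differentiating keratinocytes, was at 182 (178 to 186) in CT-LCG members and 123 in spinous cells. In FT-LCG it was at 304 (302 to 306) and 134. Its log2 ratios to spinous cells of 0.57 and 1.18 did not meet the call in both libraries, whereas those to all other deep cells did.

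CST6 and KLK7 thus went with the name in the summed levels, but some members did not carry these genes. KRT14 was at 100 or more in 16 FT-LCG members and in no CT-LCG member. Other members were low in all of these keratinocyte genes. An FT-LCG member with LOR at 12.2 had KRTDAP at 0, KRT10 and KRT1 at 4.06 and KRT14 at 2.03. Another, with LOR at 6.32, had KRTDAP, KRT10 and KRT14 at 6.32. In FT-LCG cells with endothelial markers, KRTDAP was at 9.48 and KRT10 at 35.3. Whether such members are keratinocytes was not tested. Since both kinds of cell go against the name, the members are called loricrin-high cells here. The word "granular" in the plots stands for the same cells.

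**Figure D1:**
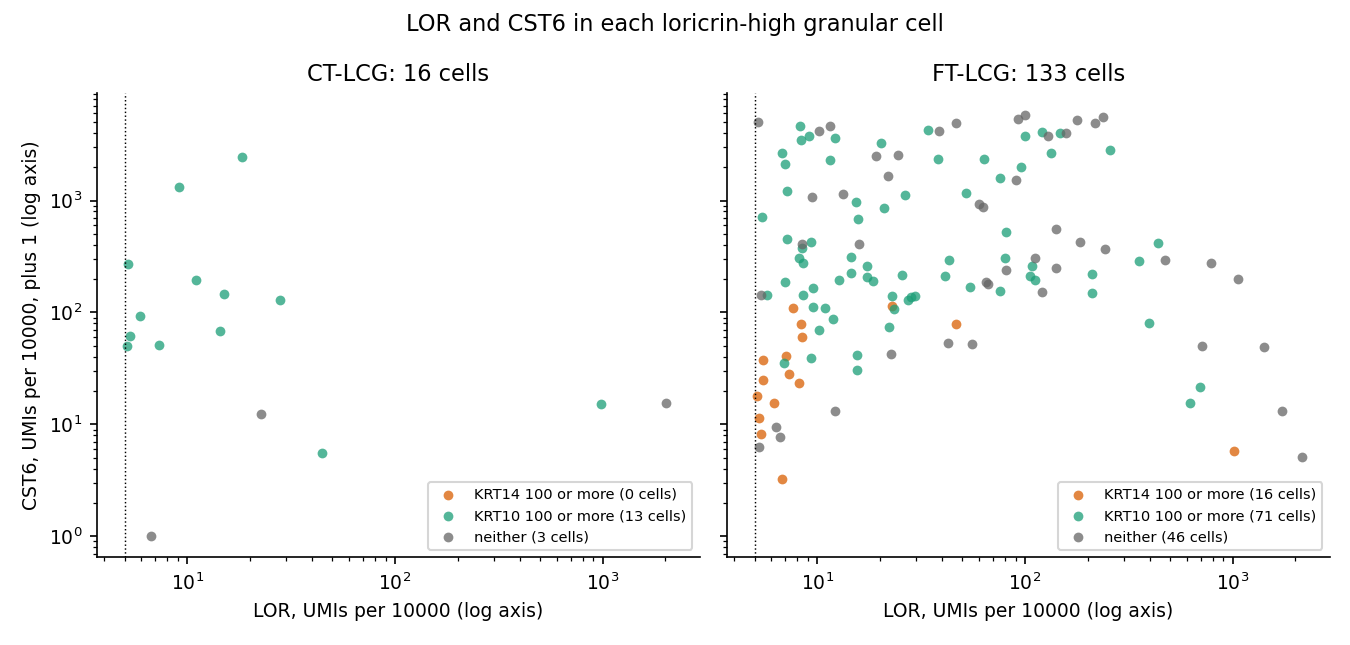
Each point is 1 loricrin-high cell, with LOR on the horizontal log axis and CST6 plus 1 on the vertical log axis, both in UMIs per 10000, for CT-LCG (16 cells) and FT-LCG (133 cells). Colours mark KRT14 of 100 or more, KRT10 of 100 or more without it, and neither, and the dotted line is the LOR limit of 5. No cell with LOR of 300 or more reaches CST6 of 1000, and the cells with KRT14 of 100 or more lie mainly at low LOR.

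The members fell into ranges that were set after their values had been seen, and which are ranges and not types. Each cell was given to the first range it met, in the order KRT14 of at least 100, CST6 of at least 1000, LOR of at least 300 and KRT10 of at least 100. CT-LCG had 0, 2, 2 and 10 cells in these ranges and 2 in none of them, and FT-LCG had 16, 39, 12 and 45, with 21 in none. Within 1.5-fold of the limit lay 0, 1, 0 and 3 CT-LCG members and 5, 11, 9 and 34 FT-LCG members, so the KRT10 range in particular had no sharp edge.

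The 39 FT-LCG cells rich in CST6 had a median CST6 of 3450 UMIs per 10000. One of them gave 58.6% of its 43310 UMIs to this gene. In the same cells the median KRTDAP was 517, KLK7 37.7 and KLK10, another secreted kallikrein protease, 24.1, but KRT1 was at 2.90 and KLK5 at 0.315. High CST6 therefore came with KLK7 and KLK10 and with a low median of the related protease gene KLK5. The 2 such CT-LCG cells had medians of 1887 for CST6, 316 for KRTDAP, 39.2 for KRT1 and 0.194 for KLK5.

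The cells richest in LOR were different. In the 12 FT-LCG cells the medians were 701.6 for LOR, 64.6 for CST6, 78.1 for ASPRV1, 120 for CSTA, 39.0 for KLK5 and 21.3 for KRT10. In the 2 CT-LCG cells they were 1500 for LOR, 14.3 for CST6, 159 for ASPRV1, 142 for CSTA and 15.5 for KLK5. ASPRV1 encodes the retroviral-like protease that processes filaggrin, and CSTA encodes cystatin A, an envelope protein and protease inhibitor. LOR and CST6 were thus not highest in the same cells, although both mark late differentiation.

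The cells with KRT10 of at least 100 and none of the earlier features had median LOR of 9.14 in CT-LCG and 15.8 in FT-LCG. Their median KRT10 was 333 and 301, and their median ASPRV1 was 0 in both libraries. They formed 62.5% of CT-LCG members and 33.8% of FT-LCG members.

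The 16 FT-LCG cells with KRT14 of at least 100 had a median KRT14 of 204, a median KRT5 of 122 and a median CST6 of 25.6, with median KLK7, ASPRV1 and CASP14 at 0. Their LOR ran from 5.11 to 46.6 in 15 of them and was 1012 in the other one. Their median depth was 5481 UMIs, lower than that of all FT-LCG members, and 13 of them were in the lowest of the 3 groups by LOR described further on. Whether free RNA or droplets with more than 1 cell account for them was not tested.

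Some members were nearly the same cell by their counts. In FT-LCG, 5 pairs of members had chi-square values of 1.03 to 1.37 per gene, where 1 is the sampling noise of repeated draws from 1 source, the next pair had 2.15 and the median over member pairs was 24.4. One such pair, of 29572 and 33502 UMIs, had LOR at 694 and 620. A further 4 pairs under the limit of 1.5 joined 3 members with cells that were not members. Counted once, the pairs of members left 128 FT-LCG members. No CT-LCG pair was below 4.15. Of 11 barcode sequences that occurred in both libraries, 0 belonged to a member. This limit was chosen after the values were seen, and their cause was not tested.

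Across all genes, 7694 had at least 100 UMIs over members and spinous cells in each library and were compared. Members were higher for 144 of them (1.87%) and lower for 159 (2.07%). Of the genes that were higher, LOR left aside, 27 of 143 had under 100 UMIs in the spinous cells of at least 1 library, so they passed the minimum only through the members, where they are high. With each cell thinned to 3000 UMIs, 110 of the 144 and 71 of the 159 were called again, and with means over cells 122 and 61. Against all other deep cells, 218 of 9521 genes were higher (2.29%) and 447 lower (4.69%). The median log2 ratio to spinous cells over all genes was -0.36 in CT-LCG and -0.30 in FT-LCG, so a gene with an unchanged ratio to other genes sat below 0. With the 20 most abundant member genes left out of the totals, these medians were -0.24 and -0.15, and 68.3% of the calls against spinous cells were higher in place of 47.5%, and 52.9% against other deep cells in place of 32.8%.

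**Figure D2:**
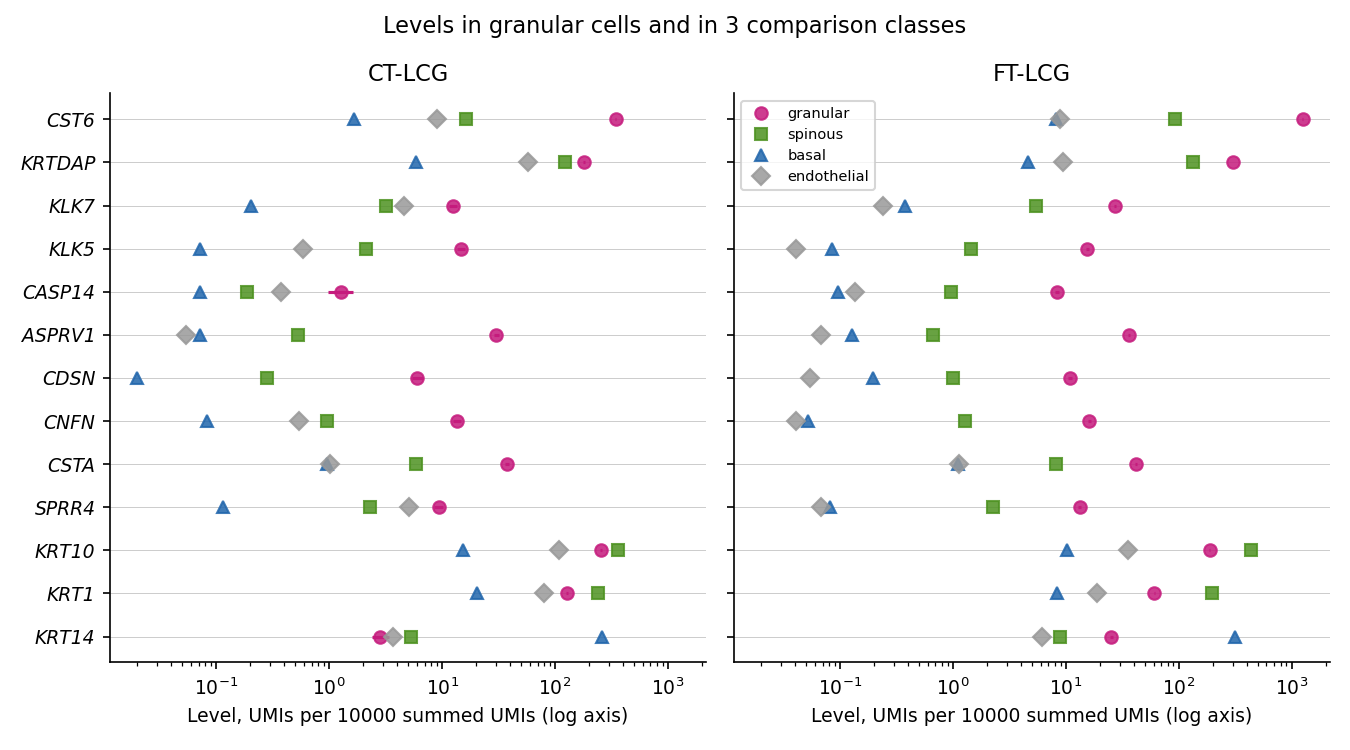
Summed levels of 13 genes (UMIs per 10000, log axis) in loricrin-high (granular), spinous, basal and endothelial-marker cells of each library, with exact Poisson 95% intervals on the member values. CST6, the kallikreins, CASP14, ASPRV1, CDSN, CNFN, CSTA and SPRR4 lie above the spinous values in both libraries, while KRT10 and KRT1 lie below them.

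The cornified envelope is the protein shell that replaces the plasma membrane. Of the 12 compared genes of its list, 6 were higher in members and 0 lower, beside 1.87% and 2.07% of all genes. Among the 6, KPRP passed the minimum of 100 UMIs only through the members. The median log2 ratio of the list was 1.11 in CT-LCG and 1.49 in FT-LCG, beside the all-gene medians of -0.36 and -0.30. LOR was left out of this list because it chose the cells. Of the 31 genes listed, 18 matched a feature by symbol, and FLG, FLG2, HRNR, the SPRR1 and SPRR2 genes and the LCE genes were not analysed here.

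Corneodesmosin (CDSN), the glue protein of horny-layer junctions, was at 6.04 in CT-LCG members and 0.278 in spinous cells, and at 10.9 and 0.998 in FT-LCG. At 3000 UMIs it was detected in 56.3% of members, 3.52% of spinous cells and 0 of 20 endothelial cells in CT-LCG. In FT-LCG the shares were 72.9%, 9.20% and 4.17%. CDSN thus parted members from spinous cells in both libraries, also at equal depth.

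Cornifelin (CNFN), an envelope protein, was at 13.6 and 0.955 in members and spinous cells of CT-LCG and at 16.2 and 1.29 in FT-LCG. CSTA was at 37.7 and 5.84 in CT-LCG and at 41.6 and 8.24 in FT-LCG, and the CT-LCG member level was 19.7 without the cell with the most LOR UMIs in each library. The small proline-rich protein gene SPRR4 was at 9.34 and 2.32, and at 13.3 and 2.28. TGM1, the transglutaminase that cross-links the envelope, was called higher at low levels of 0.851 and 1.11, against 0.158 and 0.125 in spinous cells. KPRP, a keratinocyte proline-rich protein, was at 12.6 for CT-LCG and 3.73 for FT-LCG members, and had a log2 ratio of 1.95 and 4.92 without the cell with the most LOR UMIs in each library, when it fell under the minimum of 100 UMIs for a call.

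Involucrin (IVL), an envelope precursor, was not among the called genes. It had 0 UMIs in CT-LCG members and a level of 1.43 in FT-LCG members, against 0.250 and 0.875 in spinous cells. At 3000 UMIs it was detected in 0 of 16 CT-LCG members, which allows a share of up to 18.8%, and in 10.5% of FT-LCG members, beside 6.27% of FT-LCG spinous cells and 0 of 72 endothelial cells. The periplakin gene PPL (1.39 and 1.87 in members, 1.07 and 1.31 in spinous cells), sciellin (SCEL) and TGM3 were not called either.

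Proteases shed horny cells and process envelope and filament proteins. Of 17 compared, 9 were higher and 0 lower, beside 1.87% and 2.07% of all genes, with median log2 ratios of 1.36 and 1.86. KLK5, a trypsin-like kallikrein that can activate KLK7, was at 14.7 (13.6 to 15.8) in CT-LCG members against 2.10, and at 15.5 (15 to 15.9) against 1.44 in FT-LCG. At 3000 UMIs it was detected in 62.5% of members and 14.5% of spinous cells of CT-LCG, and in 43.6% and 9.07% in FT-LCG, beside 0 of 20 and 1.39% of endothelial cells. KLK5 was higher in members of both libraries but its median was near 0 in the cells rich in CST6, with values of up to 49.9 in single FT-LCG cells.

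ASPRV1 was at 30.1 (28.6 to 31.7) in CT-LCG members and 0.532 in spinous cells, and at 36.3 (35.6 to 37.1) and 0.660 in FT-LCG. Without the cell with the most LOR UMIs in each library it was at 5.49 and 29.2, so that 1 cell set most of the CT-LCG value. The call held without those cells. ASPRV1 was detected in 37.5% of CT-LCG and 45.1% of FT-LCG members at 3000 UMIs, in 8.66% and 6.92% of spinous cells, and in 0 of 20 and 2.78% of endothelial cells.

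CASP14, the caspase that takes part in the breakdown of filaggrin, was at 1.27 (0.968 to 1.63) against 0.188 in CT-LCG, and at 8.35 (8.0 to 8.71) against 0.970 in FT-LCG. CTSV, a lysosomal cysteine protease, was at 3.15 against 0.970 and at 8.23 against 0.477. KLK6, KLK10 and the membrane protease genes PRSS8 (0.934 in CT-LCG members, 0.555 without the cell with the most LOR UMIs in each library) and TMPRSS13 were also called higher. The call of TMPRSS13 ended without those cells, with log2 ratios of -0.09 and 0.91. KLK12 was at 12.2 against 4.69 in CT-LCG but at 2.88 against 3.55 in FT-LCG, so it was not called.

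Of 9 compared protease inhibitors, 3 were higher and 1 lower, beside 1.87% and 2.07% of all genes. The list median was -0.14 and -0.12. Besides CST6, the serpin gene SERPINB7 was higher, at 0.830 and 0.582 against 0.0599 and 0.0416 in spinous cells. SERPINB7 passed the UMI minimum only through the members in both libraries, so its direction was fixed and its call is a description only. The antiprotease gene WFDC5 was at 1.95 and 1.93 against 0.264 and 0.124. The serpin gene SERPINB5 was lower, at 2.30 and 1.87 against 5.90 and 5.15.

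The lipid barrier list covers the enzymes and carriers of the ceramide layer between horny cells. Of its 32 compared genes, 7 were higher and 0 lower, beside 1.87% and 2.07% of all genes, with medians of 0.30 and 0.45. Among the 7, ALOXE3 passed the minimum of 100 UMIs in CT-LCG only through the members, so its place there is a description only. SDR9C7, a dehydrogenase of the acylceramide route, was at 1.37 and 1.49 in members against 0.208 and 0.212 in spinous cells. DEGS1, the ceramide desaturase, was at 3.24 and 2.62 against 0.387 and 0.759. The lipoxygenase gene ALOX12B was at 0.436 and 0.574 against 0.0812 and 0.112. NIPAL4, LIPK and UGCG were also higher, with NIPAL4 at 0.996 in CT-LCG members and 0.416 without the cell with the most LOR UMIs in each library. The log2 ratios of ALOXE3, 2.29 and 1.57, were 1.35 and 1.46 without those cells, when it fell under the minimum of 100 UMIs.

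**Figure D3:**
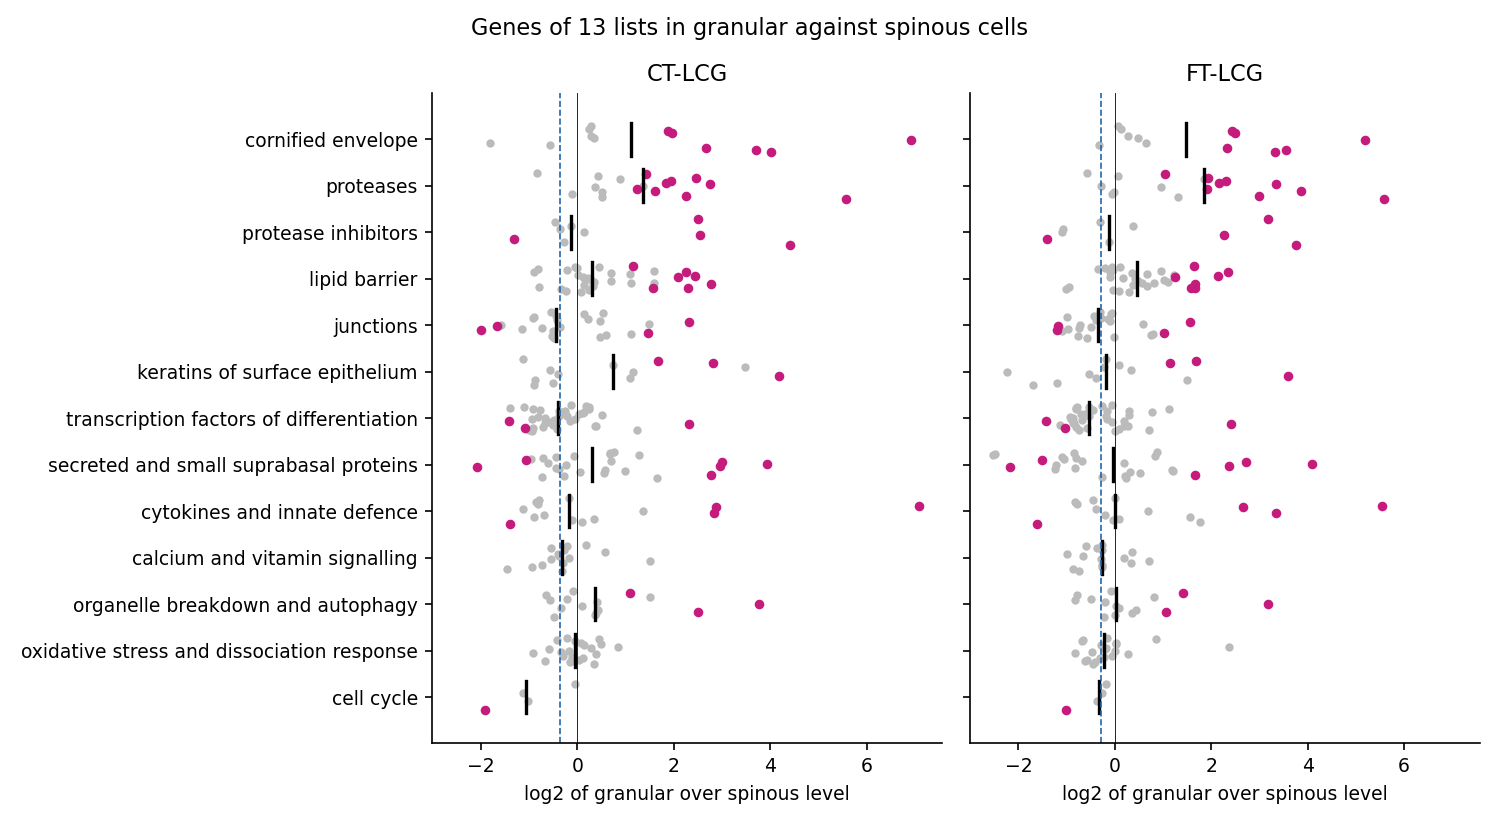
Log2 ratios of member over spinous levels for the compared genes of 13 lists in each library, 1 point per gene, with called genes coloured, list medians as black bars and the all-gene median as a dashed line. The protease and cornified envelope lists have the highest medians among these lists, and transcription factors lie mostly below 0.

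The 24 compared junction genes had median log2 ratios of -0.43 and -0.35. The tight junction gene CLDN8 was called higher, at 0.456 and 0.496 in members against 0.101 and 0.195 in spinous cells. Called lower were the desmocollin gene DSC3, which belongs to the lower layers, at 0.353 and 0.669 against 1.70 and 1.67, and the connexin gene GJA1, at 0.0415 and 0.0944 against 0.350 and 0.341. The CT-LCG member level of GJA1 rested on very few UMIs.

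Among keratins, 3 of 13 compared genes were higher and 0 lower, beside 1.87% and 2.07% of all genes. KRT23 was at 7.88 and 12.6 in members against 0.337 and 0.951 in spinous cells. KRT80 was at 3.28 and 5.73 against 0.956 and 1.71. KRT79, also known from the upper hair follicle, was at 5.73 and 8.03 against 0.727 and 3.55, but its log2 ratio in CT-LCG was -3.32 with a LOR limit of 20. KRT10 was at 255 (251 to 260) and 189 (187 to 191) in members against 360 and 434, and KRT1 was at 128 and 61.0 against 239 and 198. Neither was called, KRT10 was used to define the spinous class, and their medians over FT-LCG members were 118 for KRT10 and 21.2 for KRT1, with the highest medians in the KRT10 range, which KRT10 itself set.

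Of 38 compared transcription factors of differentiation, 1 was higher and 2 were lower, beside 1.87% and 2.07% of all genes, with medians of -0.41 and -0.53. HOPX, a homeodomain cofactor of late differentiation, was at 12.3 and 24.9 against 2.37 and 4.62. KLF5 (1.62 and 0.602 against 4.48 and 1.78) and EHF (3.71 and 0.980 against 7.97 and 2.12) were lower, and the log2 ratios of EHF moved from -1.08 and -1.04 to -0.93 and -1.01 without the cell with the most LOR UMIs in each library, which ended its call. KLF4, a regulator of the barrier, was at 23.6 and 21.6 in members and 26.2 and 18.9 in spinous cells.

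Of 26 genes listed as secreted and small suprabasal proteins, 4 were higher and 2 lower, beside 1.87% and 2.07% of all genes. Among the 4 is DEGS1, already counted among the lipid barrier genes. The GPI-anchored proteins LYPD5 (5.19 and 8.75 against 0.245 and 0.420, with 3.02 in CT-LCG without the cell with the most LOR UMIs in each library) and LY6G6C (7.41 and 13.6 against 0.863 and 2.56) and the prosaposin relative PSAPL1 (2.57 and 4.94 against 0.236 and 0.661) were higher. LY6D, of the same family as LY6G6C, went the other way, at 2.41 and 1.90 against 10.5 and 8.89. Suprabasin (SBSN) was at 162 and 159 against 96.0 and 86.2 and was not called.

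Of 15 compared cytokine and innate defence genes, 3 were higher and 1 lower, beside 1.87% and 2.07% of all genes. Among the 3, IL37 passed the UMI minimum only through the members in both libraries, so its direction was fixed and its call is a description only. IL1A, an alarm cytokine held in keratinocytes, was at 2.68 and 2.92 against 0.288 and 0.198. IL36RN, the antagonist of the interleukin-36 receptor, was at 7.80 and 6.30 against 0.981 and 0.914. The chemokine gene CCL20 was lower, at 6.35 and 6.37 against 16.8 and 19.8, and its log2 ratios of -1.39 and -1.62 became -0.98 and -1.59 without the cell with the most LOR UMIs in each library, which ended its call.

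IL37, an inhibitory cytokine of the interleukin-1 family, came from very few cells. It was at 13.6 and 4.77 in members against 0.000666 and 0.00403 in spinous cells. It had no UMI in 12 of 16 CT-LCG and 119 of 133 FT-LCG members, and reached 51.9 and 132 in its highest cells. Without the cell with the most LOR UMIs in each library the levels were 0.693 and 3.38 and the log2 ratios 2.98 and 5.07, and the gene fell under the minimum of 100 UMIs for a call.

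Among 15 compared genes of organelle breakdown and autophagy, 3 were higher and 0 lower, beside 1.87% and 2.07% of all genes. GSDMA, a gasdermin of the upper epidermis, was at 3.09 and 2.86 against 0.134 and 0.226. The autophagy genes BNIP3L (4.27 and 2.88 against 0.675 and 1.32) and TEX264 (1.16 and 1.58 against 0.493 and 0.528) lost their calls without the cell with the most LOR UMIs in each library, with log2 ratios of 0.94 and 1.04, and of -0.05 and 1.33. The CT-LCG level of GSDMA was then 1.58.

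Of 15 calcium and vitamin signalling genes, 21 genes of oxidative stress and of the response to dissociation and 78 ribosomal protein genes, 0 were called in either direction. Over all genes, 1.87% were higher and 2.07% lower, so a count of 0 does not set lists of these sizes apart. The ribosomal median was -0.51 in CT-LCG and -0.38 in FT-LCG, below the all-gene medians. Of 4 compared cell cycle genes, 1 was lower, HMGB2, at 0.394 and 0.449 against 1.76 and 1.01, and its log2 ratios of -1.91 and -1.01 became -1.70 and -0.9996 without the cell with the most LOR UMIs in each library, which ended its call.

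By the log2 ratio to spinous cells in the library where it was smaller, the leading genes after LOR were LOC108635656, LOC108635596, LOC108635658, LOC102185235, LOC108635657, LOC108635659 and LOC108634870, followed by ASPRV1 and IL37. Of these, LOC108635596, LOC102185235, LOC108635657, LOC108635659, LOC108634870 and IL37 had under 100 UMIs in CT-LCG spinous cells. They passed the minimum there only through the members, so their direction was fixed and their rank is a description only. In CT-LCG, LOC102185235 was at 63.0 and LOC108634870 at 6.04 in members, and at 10.1 and 2.27 without the cell with the most LOR UMIs in each library. The lowest ratios belonged to LOC102185525, the retinal dehydrogenase gene ALDH1A1 (0.270 and 0.0866 against 1.85 and 1.46, with 0.166 in CT-LCG without the cell with the most LOR UMIs), the acyl-CoA thioesterase gene THEM5 (0.145 and 0.472 against 1.30 and 2.83), LOC102174170, which the reference table also lists as GSTA3, LY6D, CHP2, HS3ST1, ZFP36L2, BBOX1 and CD82. HS3ST1 had no UMI in CT-LCG members, CD82 had 1, BBOX1 had 4, THEM5 had 7 and LOC102185525 had 10. ALDH1A1 and CHP2 had 13 each, so these CT-LCG ratios rested on few member UMIs.

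Most of the leading LOC genes lie in the epidermal differentiation complex, the cluster of envelope and S100 genes around LOR. Between S100A10 and S100A1 the ARS1.2 reference table places 51 genes, all of them features of the matrix. Leaving out LOR, 29 were compared, 12 were higher and 1 was lower, beside 1.87% and 2.07% of all genes. The lower gene was S100A11. Its log2 ratios of -1.08 and -1.52 became -0.90 and -1.49 without the cell with the most LOR UMIs in each library, which ended its call. Of the 12, 7 had under 100 UMIs in spinous cells of at least 1 library (LOC102187909, LOC108635596, LOC102176090, KPRP, LOC108635657, LOC108635659 and LOC102184770), so the minimum fixed their direction and the count is a description only. The median log2 ratio of the 29 genes was 0.75 and 0.19 in the respective libraries. The cluster without LOR held 11.7% of member UMIs for CT-LCG and 3.75% for FT-LCG, against 2.97% and 1.88% in spinous cells, and 4.67% and 3.16% of member UMIs without the cell with the most LOR UMIs in each library.

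Of the 12 genes of the cluster that were higher, 5 are annotated as long non-coding RNA. LOC108635656 was at 169 (166 to 173) in CT-LCG members and 70.9 (69.8 to 71.9) in FT-LCG members, against 0.165 and 0.184 in spinous cells. It had no UMI in 6 of 16 and 73 of 133 members and reached 1053 and 998 in its highest cells. Without the cell with the most LOR UMIs in each library it was at 32.2 and 52.8 and was still called.

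LOC108635656 to LOC108635659 follow KPRP in the table, ahead of IVL, and LOC108635596 lies between CRNN and CRCT1. The 5 of them together were at 556 in CT-LCG members and 183 in FT-LCG members, and at 70.9 and 128 without the cell with the most LOR UMIs in each library. What these transcripts encode or do was not analysed here, and whether reads are shared between near-identical copies was not checked.

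The protein-coding genes of the cluster that were higher were SPRR4, KPRP, C3H1orf68, LOC106501763, LOC102187909, LOC102176090 and LOC102184770. LOC106501763, which lies between RPTN and CRNN, was at 33.4 (31.8 to 35.1) and 44.7 (43.9 to 45.6) in members against 0.622 and 1.39 in spinous cells, and its CT-LCG member level was 11.5 without the cell with the most LOR UMIs in each library. C3H1orf68 was at 39.6 and 18.3 against 0.858 and 0.759, and at 6.79 in CT-LCG without those cells. LOC102184770 was at 21.0 and 3.21 and was at 2.5 in CT-LCG without them, and LOC102176090 then dropped under the minimum of 100 UMIs, with log2 ratios of 3.59 and 4.21. All 12 lie between RPTN and LOR. S100A2 (13.3 and 10.0 against 18.1 and 21.7) and S100A14 (6.33 and 5.11 against 12.4 and 10.8), at the S100A1 end, were not called.

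**Figure D4:**
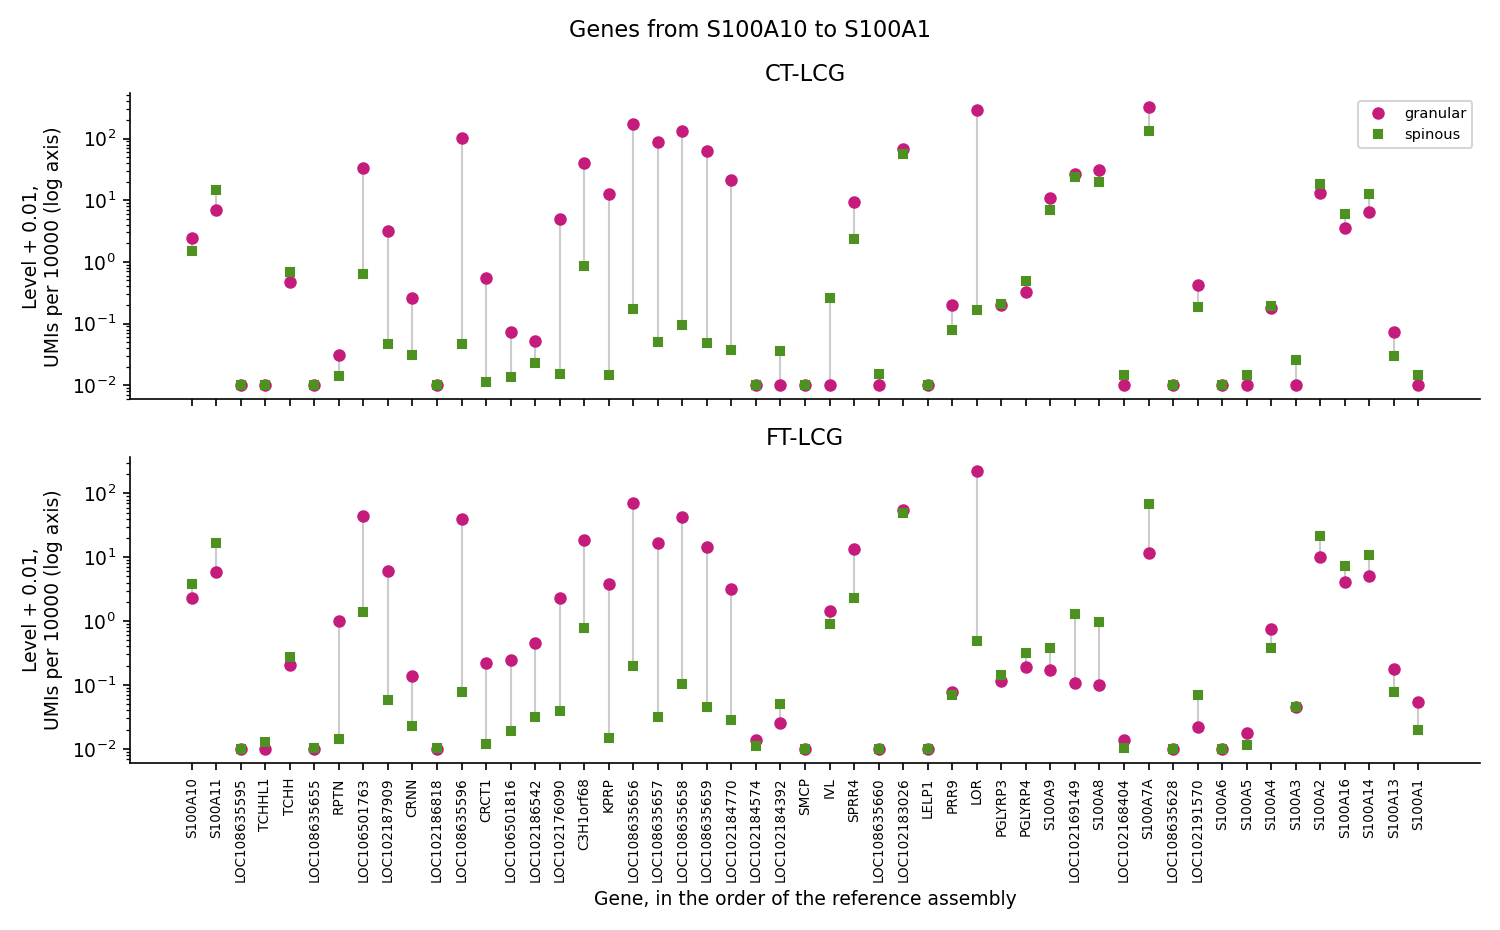
Levels plus 0.01 (UMIs per 10000, log axis) of the genes from S100A10 to S100A1 in the order of the reference assembly, in members and spinous cells of each library. The block of genes next to KPRP and the LOR gene itself stand above the spinous values, while S100A7A lies above its spinous value in CT-LCG and below it in FT-LCG.

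Within the members, levels were followed over 3 groups of nearly equal size, cut by LOR, with LOR UMIs left out of the totals. The lowest, middle and highest groups held 6, 5 and 5 cells in CT-LCG and 45, 44 and 44 in FT-LCG. LOR spanned 5.16 to 7.31, 9.11 to 18.4 and 22.8 to 2016 in CT-LCG, and 5.11 to 11.9, 12.2 to 64.8 and 66.1 to 2158 in FT-LCG. Of 529 genes with enough UMIs, 25 were counted as rising over the groups in both libraries (4.73%) and 10 as falling (1.89%). A change from the lowest to the highest group alone was not enough to be counted. CDSN rose at each step, but by less than 2-fold, and was not counted. It was at 4.17, 5.93 and 7.11 in CT-LCG and at 7.78, 10.8 and 13.6 in FT-LCG. KRT10 was lowest in the highest group of both libraries, but was at 233, 259 and 108 in FT-LCG and was not counted. With each cell thinned to 3000 UMIs, 19 of the 25 and 3 of the 10 were called again. Without the cell with the most LOR UMIs in each library, 10 rose and 2 fell among 450 genes.

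The 10 genes that rose without those cells were ASPRV1, SPRR4, LYPD5, KLK12, KRT23, LOC102185235 and 4 of the long non-coding genes, LOC108635596, LOC108635656, LOC108635657 and LOC108635658. With all members, ASPRV1 was at 0, 2.10 and 57.8 in the lowest, middle and highest groups of CT-LCG and at 3.98, 7.17 and 86.2 in FT-LCG, and its highest groups were at 10.6 and 68.4 without the cell with the most LOR UMIs in each library. SPRR4 was at 2.14, 2.55 and 16.1 and at 2.41, 7.47 and 26.6. KRT23 was at 0.901, 1.13 and 14.5 and at 5.87, 9.08 and 20.9. ASPRV1, SPRR4 and KRT23 were also called higher against spinous cells, whereas KLK12 was not. LOR chose the members and cut these groups, which held 5 or 6 cells each in CT-LCG, so the order over them is a description only.

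The 2 genes that fell were HSPA6, a heat shock protein gene, and EGR1, an immediate early transcription factor, both named after their values were seen. HSPA6 was at 33.8, 18.3 and 3.58 in CT-LCG and at 19.8, 7.23 and 3.85 in FT-LCG. EGR1 was at 12, 5.33 and 2.72 and at 4.39, 3.06 and 1.41. Both respond to stress and tissue handling, whose part in the result was not tested. In FT-LCG the lowest group also held 13 of the 16 cells with KRT14 of at least 100, and its median depth was 11766 UMIs against 20333 in the highest group. The CT-LCG median depths were 13398.5 UMIs in the lowest and 55426 in the highest group.

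CST6 had no order over the LOR groups that both libraries shared. It was at 87.5, 1105 and 43.2 in CT-LCG and at 1116, 1258 and 1419.6 in FT-LCG, with 11, 13 and 15 of the FT-LCG cells rich in CST6 in the lowest, middle and highest group. Without the cell with the most LOR UMIs in each library, and with the groups cut again, CST6 was at 91.3, 669 and 492 in CT-LCG, where a cell with CST6 at 2443 then counted in the highest group. KRT10 was at 473, 251 and 193 in CT-LCG and at 233, 259 and 108 in FT-LCG, so it was lowest in the highest group of both libraries.

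**Figure D5:**
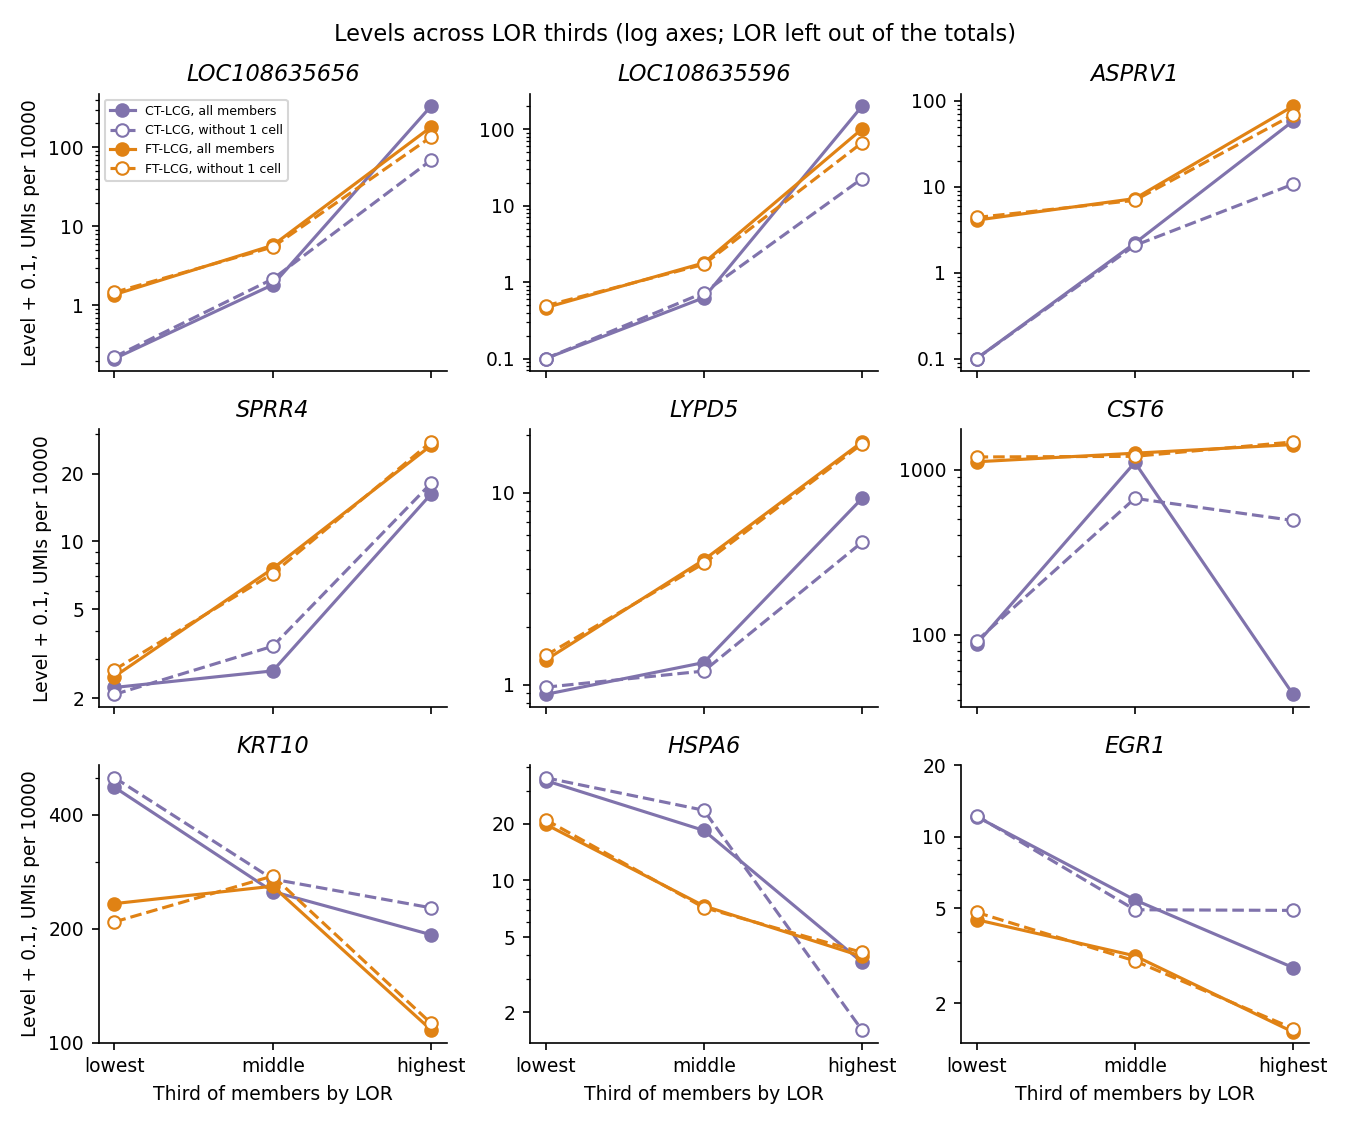
Levels plus 0.1 (UMIs per 10000, log axes, LOR left out of the totals) of 9 genes in the lowest, middle and highest LOR groups of each library, with filled points for all members and open points without the cell with the most LOR UMIs. ASPRV1, SPRR4, LYPD5 and the 2 long non-coding genes rose in both libraries, CST6 had no common order, and HSPA6 and EGR1 fell.

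The members of the 2 libraries differed in several genes, as single values of 1 goat each. CST6 had a log2 ratio of CT-LCG over FT-LCG of -1.87 in members and -2.51 in spinous cells, so the lower level in CT-LCG was not confined to members. The calprotectin gene S100A8 was at 31.4 for CT-LCG (20.6 without the cell with the most LOR UMIs) and 0.0905 for FT-LCG members, and at 19.6 and 0.969 in spinous cells. Its partner S100A9 was at 11 and 0.161 in members and at 6.81 and 0.369 in spinous cells. On the FT-LCG side, IVL and the filaggrin-related gene RPTN (1.00 against 0.0207) had the higher levels, with log2 ratios of -3.93 and -3.19. In CT-LCG members RPTN had 1 UMI and IVL had 0, so both ratios depend on the added 0.1. A few cells can set such values, since 114 of 133 FT-LCG members had no IVL UMI.

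The 6 spinous markers, which share KRTDAP and KRT10 with the genes described above, summed to 735 in CT-LCG and 718 in FT-LCG members, near the 831 and 865 of spinous cells. Among the other marker lists, those of the basal layer and of the outer root sheath had the highest summed levels. The 9 basal markers together were at 5.46 in CT-LCG members, with ITGA3 and LAMB3 at 0, and at 48.0 in FT-LCG members with all 9 detected, against 9.31 and 26.7 in spinous cells. KRT14 led them at 2.84 and 25.4. The FT-LCG value thus exceeded that of spinous cells, a class that was limited to KRT14 below 50 while members were not, and its part in the results was not tested. The hair shaft markers were at 0.871 and 1.18, led by DLX3, with KRT35 and HOXC13 at 0 in CT-LCG, and the inner root sheath markers at 2.37 and 2.01, led by GATA3, with KRT74 at 0 in both libraries.

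The outer root sheath and bulge markers were at 13.6 and 12.8 in members against 1.83 and 6.58 in spinous cells, led by KRT6A (7.18) in CT-LCG and KRT79 (8.03) in FT-LCG. Of these 7 markers, LHX2, LGR5 and CD200 were at 0 in CT-LCG and LHX2 in FT-LCG. KRT6A is also a keratin of stressed epidermis. Their part in the calls of KRT79 and KRT23 was not tested.

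Sebaceous markers were at 4.50 and 5.06 in members and below the spinous values of 9.36 and 10.3, and PLIN2, which coats lipid droplets, was lower in members, with log2 ratios of -2.08 and -1.0007 that became -1.76 and -0.99 without the cell with the most LOR UMIs in each library, which ended its call. AWAT1, AWAT2 and PPARG were at 0 in both libraries. The sweat gland markers were at 2.20 and 0.606, led by AQP5 (2.16 and 0.555), which was at 0.416 in CT-LCG without the cell with the most LOR UMIs in each library. Fibroblast markers were at 1.22 and 1.81, led by VIM with 0.871 and 1.76, whereas LUM was at 0 in both libraries. VIM was called higher against spinous cells, at 0.871 and 1.76 against 0.252 and 0.493, but its direction reversed in both libraries with a LOR limit of 20 or a UMI limit of 10000.

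Endothelial markers had 0 UMIs for all 7 genes in CT-LCG members and a summed level of 0.157 in FT-LCG, led by PLVAP. All 6 T cell markers were at 0 in CT-LCG and summed to 0.0197 in FT-LCG. Mast cell markers were at 0 and 0.0984, melanocyte markers at 0.0415 and 0.295, muscle markers at 0.0415 and 0.165, and markers of antigen-presenting cells at 0.166 and 0.311. The summed levels of these lists were thus near 0 in the members of both libraries, but single FT-LCG members carried such markers. For each of the endothelial, antigen-presenting, mast, melanocyte and muscle lists, 1 FT-LCG member held at least 10 UMIs over the markers. For the fibroblast list 5 did, and 2 FT-LCG members met the limits of the cells with endothelial markers. Whether these were the same members was not examined.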

How the data were processed

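The authors deposited whole-number UMI counts per gene and barcode, made with Cell Ranger 3.0.2, with both libraries in 1 matrix of 27137 features, and a table of the cells they kept. Their processing notes also name Seurat 3.1.1. Which goat genome was used is not given in the sources used here. These counts of the kept cells (630 to 190503 UMIs per FT-LCG cell, 729 to 172185 per CT-LCG cell) were used without normalization and summed per class and library in Python 3.11.15 with numpy 2.4.6 and scipy 1.17.1. Levels are UMIs per 10000, log2 ratios had 0.1 added to both levels, and genes with at least 100 UMIs over both classes in each library were compared. Doublets were not called by a tool; leaving out the 5% of members with the most UMIs was an alternative. Genes were named by a rule: the marker genes, the 15 most abundant, the 10 most extreme ratios each way, up to 6 called and 3 uncalled genes per list, and the genes that differed most between libraries. The members and lists were chosen with earlier results of these data known. ARS1.2 gave gene order and names only, and 27103 features matched it. The result of 1 listed gene is not reported here.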

Additional observations from a re-analysis of the deposited data

Results flagged for a closer look

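S100A7A, a psoriasin gene, and KRT4, a keratin of soft epithelia, were at least 2-fold higher than in spinous cells in CT-LCG members and at least 2-fold lower in FT-LCG members. The log2 ratio of S100A7A was 1.28 for CT-LCG and -2.53 for FT-LCG, and that of KRT4 was 1.15 and -2.23. Without the cell with the most LOR UMIs in each library the CT-LCG values were 0.65 and 0.62, so neither gene then passed 2-fold there. The S100A7A level of CT-LCG members, 321, rested on few cells, since its median over cells was 3.01 and its highest value 1333. The difference between the libraries was not tested.

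Barcodes outside the cells compared also carried LOR. Among kept cells with fewer than 3000 UMIs, 6 of 1882 in CT-LCG and 126 of 3575 in FT-LCG met the LOR and KRT35 limits. The 126 had median levels of 26.3 for LOR, 98.0 for CST6 and 116 for KRT14, at a median of 1260 UMIs. Among 4248 barcodes that the authors did not keep, 25 met the same limits, with LOR of up to 1748. Their cause was not tested.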

How the results depend on the processing

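No paired analysis was possible because each library is 1 sample and no fit across samples was made. The alternatives without the cell with the most LOR UMIs in each library, without members with KRT14 of 100 or more, and with 1 cell of each near-identical pair were chosen after seeing the data. A LOR limit of 20 left 5 CT-LCG and 73 FT-LCG members. A UMI limit of 1000 gave 238 FT-LCG members, and one of 10000 gave 88. The CST6 level of CT-LCG members was 41.0 at the LOR limit of 20, 367 at the UMI limit of 10000, 454 without the top 5% by UMIs and without the top LOR cell, 305 as a mean over cells, 309 thinned and 473 without the 20 most abundant genes in the totals. That of FT-LCG was 1336, 1199.7 and 1310.5 at the LOR limit of 20 and the UMI limits of 1000 and 10000, 1284 with a KRT35 limit of 5, 1279.9 without the top LOR cell, 1345 without the KRT14 cells, 1283 with pairs counted once, 1101 as a mean over cells, 1111 thinned and 1795 without the 20 most abundant genes.

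Against other deep cells, 833 genes were lower at the LOR limit of 20, 288 with means over cells, 286 without the 20 most abundant genes and 27 with 1 added to both levels, and 135 were higher with at least 500 UMIs and 79 with 1 added. Against spinous cells, 397, 82, 91 and 15 were lower under these 4 settings and 263 with 10% of the mean library profile subtracted, and 76 and 62 were higher with at least 500 UMIs and with 1 added. Without the top LOR cell, 10 genes rose and 2 fell over the LOR groups; 127 genes were then higher than in spinous cells, of which 117 were among the 144. Log2 ratios reversed for KRT79 in CT-LCG (-3.32, LOR limit of 20), for VIM (-1.80 and -0.58 at the LOR limit of 20, -1.49 and -0.85 at the UMI limit of 10000) and for TEX264 in CT-LCG (-0.053, without the top 5% and without the top LOR cell). The causes were not tested. The 16 cells of CT-LCG and the single goat per library limit every value.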

Other observations

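Genes whose level parted the libraries most within members were partly genes without a symbol. LOC102180443 was at 0.0830 in CT-LCG members and 10.5 in FT-LCG members, and at 0.114 and 10.9 in spinous cells. LOC108633164 was at 50.9 and 1.22 in members and at 26.6 and 4.09 in spinous cells. Both differences were thus also seen outside the members.

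The share of UMIs taken by the 10 most abundant genes of a cell had a median of 16.1% in CT-LCG members and 20.9% in FT-LCG members, against 14.4% and 16.8% in spinous cells. It reached 49.8% and 70.9% in single members. IER3, an immediate early gene, was at 21.3 and 44.0 in members against 11.8 and 8.47 in spinous cells and was not called.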
